A study of Mus musculus with 6 samples.

Results

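The RNAs described here are the expressed long intergenic noncoding RNAs (lincRNAs) of 4T1, a line of mouse mammary carcinoma known for its spread to other organs after grafting. They were selected on their level: they are the rows of the deposited gene table that are typed lincRNA and not protein coding, whose mean level over the 6 libraries was at least 1 FPKM (the authors' fragment values, corrected for transcript length and sequencing depth), without Gas5 and the Snhg genes. The rule found 118 of the 28154 rows. The table held 1513 rows typed lincRNA without a coding type. Of the others, 10 rows at or above the floor and 2 below it were Gas5 or Snhg genes, and 1383 further rows lay below the floor. The 118 were thus chosen by their FPKM, which is described below without a test, and not for their response. RNA sequencing of total RNA compared 3 libraries of 4T1 cells treated with corticosterone, the main glucocorticoid of mice, with 3 libraries of control 4T1 cells, and the cell line was the same in both groups. Total RNA is the material extracted, and whether polyadenylated RNA was selected from it is not described here. Dose, duration, vehicle and library strandedness are not stated by the labels. Nor do these say whether replicates were separate cultures, and all p-values rest on a spread between libraries that may be technical.

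LincRNAs are transcribed and mostly spliced and polyadenylated like messenger RNAs, but hold no long conserved reading frame. Some act in the nucleus as scaffolds of bodies such as paraspeckles and speckles, some bind proteins or microRNAs, some matter as the precursors from which microRNAs or small nucleolar RNAs (snoRNAs) are cut, and for some it is the act of transcription next to a coding gene that counts. Glucocorticoids bind the glucocorticoid receptor, a transcription factor encoded by Nr3c1, which then binds DNA and raises or lowers the transcription of genes, and lincRNA genes can be among them as coding genes are.

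The libraries held 62175495 to 66249288 counts, so 3 counts were at most 4.83e-06% of a library. Between 22244 and 22683 genes were detected in a library. The 10 markers listed for 4T1 and epithelial cells summed to 6409 to 7547 CPM (counts scaled to library size) in corticosterone libraries and 6909 to 7212 CPM in control libraries. Vim, the highest of these 10 at 2015 to 2338 CPM over all libraries, is not specific to epithelial cells. The 10 markers of fibroblasts, leukocytes and endothelium summed to 78.0 to 85.2 CPM in corticosterone libraries and 68.5 to 83.0 CPM in control libraries. Cd3e, Cdh5 and Kdr, which define T cells and endothelium, reached at most 10, 18 and 14 counts in a library. Others of the list were higher, with 2155 to 2789 counts for Col1a1, 345 to 749 for Col3a1 and 1359 to 1617 for Pdgfra of fibroblasts, 213 to 319 for Ptprc and 104 to 214 for Adgre1 of leukocytes, and 36 to 105 for Pecam1 of endothelium. The part of other cells in the results was not tested. Corticosterone replicate 2 stood apart from its group: without it 3670 of 17862 tested genes passed an adjusted p of 0.05 (20.5%), whereas with all 6 libraries 487 of 17283 genes passed (2.82%). Results on the lincRNAs named are therefore given with and without that library where the call differs.

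The expressed lincRNAs were mostly of low abundance. Their median level was 2.17 FPKM, with 55 between 1 and 2 FPKM, 32 between 2 and 5, 14 between 5 and 10 and 17 at 10 or above. Just inside the floor lay Platr22 at 1.003 FPKM, 4632404H12Rik at 1.01 and 1810044D09Rik at 1.05, and just outside it Gm49891 at 0.962, Gm17354 at 0.957 and D730003I15Rik at 0.944. In all, 95 of the 118 carry only a Gm number or a Rik clone name. They lay on 21 chromosomes, and their longest annotated transcripts had a median length of 1629.5 bases, between 279 bases for Gm49207 and 20771 bases for Neat1.

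The top of the ranking by level held several rows whose sequence is shared with other genes, so their counts depend on how shared reads were assigned. Rps18-ps4 (110 FPKM), Gm10076 (99.0), Erdr1 (75.6), 1110038B12Rik (68.4), Gm47283 (45.1), Malat1 (43.0), Gm49890 (35.5) and Neat1 (33.1) led, followed by Gm42047 (29.1), 3300005D01Rik (25.2), 2900097C17Rik (23.5) and AU020206 (22.6). Of these, Rps18-ps4 was counted in a single library, and Gm10076 shares 82.2% of its 31-base words with the ribosomal protein gene Rpl41. Across all 118, 17 share at least 50% of their words with another gene's transcripts and 27 share none. On the opposite strand, 36 of the 118 overlap another gene, and without strand in the counting reads of the partners cannot be told apart.

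**Figure D1:**
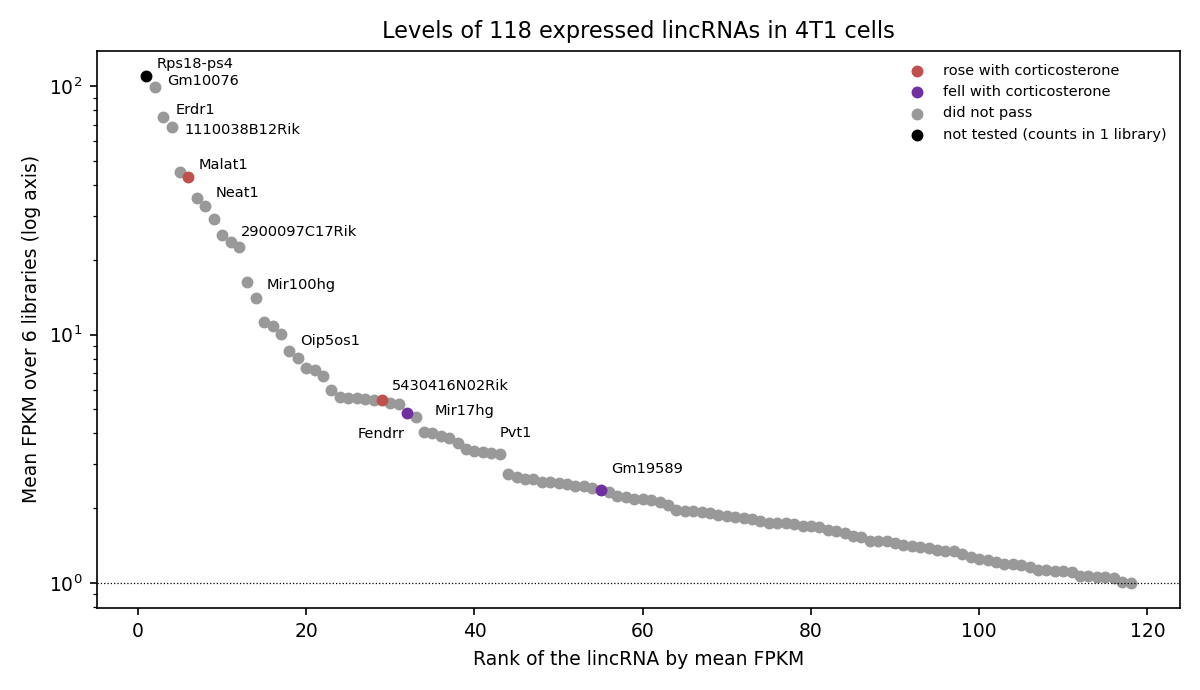
Mean level of each of the 118 lincRNAs over the 6 libraries (FPKM, log axis) against its rank, with the dotted line at the floor of 1 FPKM. Levels run from 110 FPKM for Rps18-ps4, which was counted in 1 library, to 1.003 FPKM for Platr22; the 4 lincRNAs that changed are coloured and lie at ranks 6, 29, 32 and 55.

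Few of these lincRNAs changed with corticosterone. Of the 117 that could be tested, 2 rose (Malat1 and 5430416N02Rik), 2 fell (Fendrr and Gm19589) and 113 did not pass an adjusted p of 0.05 in edgeR's quasi-likelihood test, so that 3.42% passed, against 2.82% of all genes tested. Among all genes 1.35% rose and 1.46% fell. At an unadjusted p under 0.05 there were 22 lincRNAs (18.8%), 7 higher and 15 lower, against 2944 of all 17283 genes (17%). Without corticosterone replicate 2, 16 of 117 passed (13.7%), 4 higher and 12 lower, against 10.5% of all genes higher and 10% lower, and the 4 named above were among them. In RNA from a whole culture, fewer cells that express a lincRNA and less of it per cell cannot be told apart.

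Fold changes of the set were small. Their median log2 fold change was -0.044 (all tested genes 9.62e-05), with quartiles at -0.20 and 0.09, and 50 lay above 0 and 67 below it. The median size of the change regardless of sign was 0.15 on the log2 scale both for the lincRNAs and for all genes. Their median standard error (SE) was 0.161, against 0.117 for all genes. The CPM of the 3 corticosterone libraries lay wholly above those of the 3 control libraries for 8 lincRNAs (6.84%, against 10.6% of all genes) and wholly below for 17 (14.5%, against 11.6%). For the lincRNAs, the spread between replicates was wider in corticosterone libraries, with a median coefficient of variation of 14.2%, than in control libraries, with 9.45%. The same values are not given here for all genes, so this spread cannot be called particular to the lincRNAs.

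**Figure D2:**
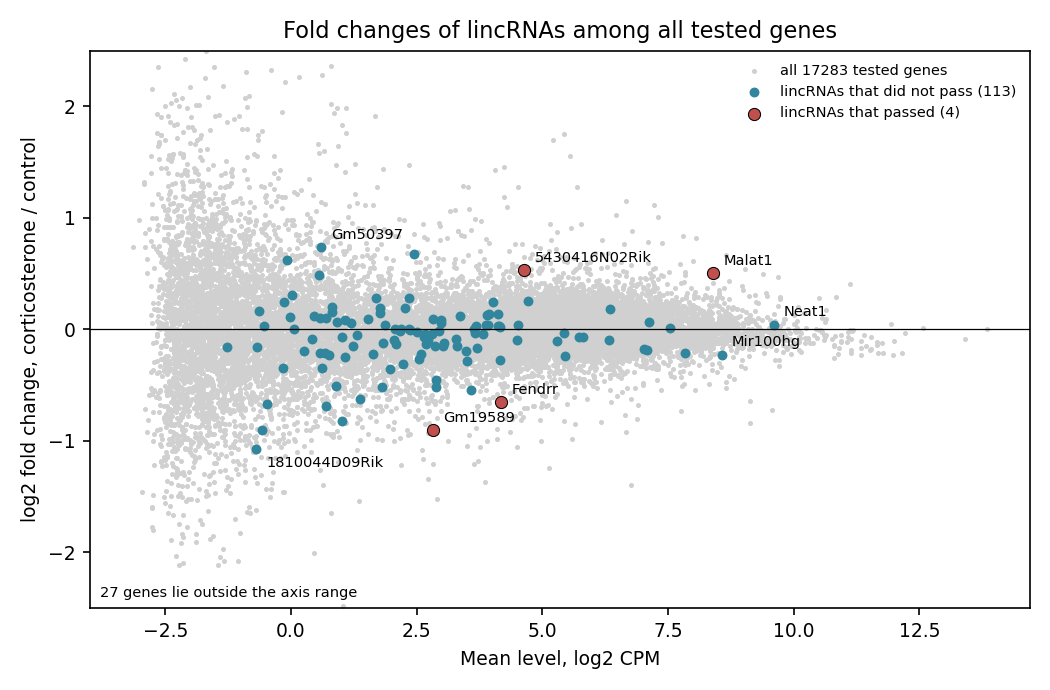
Log2 fold change (corticosterone over control) against mean level (log2 CPM) for all 17283 tested genes in grey and the 117 tested lincRNAs in colour. The 4 that passed are ringed, the others lie between -1.07 (1810044D09Rik) and 0.74 (Gm50397), and 27 genes lie beyond the limits of 2.5 on the vertical axis.

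Malat1 rose. It is an abundant nuclear RNA that gathers in nuclear speckles, bodies rich in splicing factors, and is widely studied in metastasis. Malat1 (chromosome 19, 5795690 to 5802672, minus strand, GRCm38 as in the table) had 348, 389.9 and 455 CPM in corticosterone replicates 1, 2 and 3, against 276, 305 and 258 CPM in control replicates 1, 2 and 3. Every corticosterone library lay above every control library. The means were 397 ± 53.8 CPM with corticosterone and 279.8 ± 23.6 CPM in controls (SD, n = 3 each), a 1.42-fold increase with a log2 fold change of 0.51 (SE 0.102, Benjamini-Hochberg adjusted p = 0.0412 in edgeR). With any single library left out the log2 fold change lay between 0.40 and 0.59, but the call was less stable. The adjusted p in edgeR was 0.00931 without corticosterone replicate 2 and between 0.0574 and 0.172 without any of the other 5.

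5430416N02Rik, listed by RefSeq with the synonym Adapt33, rose by a like factor and was the most uniform of the 4. Adapt33 was described in hamster cells as an RNA induced by oxidative stress. The gene (chromosome 5, 100420842 to 100429535, minus strand) had 30.2, 29.3 and 29.1 CPM with corticosterone, against 21.04, 19.4 and 20.9 CPM in controls. The gap between the groups was several times the range within either. The means were 29.6 ± 0.572 and 20.5 ± 0.878 CPM (SD, n = 3 each), and the log2 fold change was 0.53 (SE 0.0704, adjusted p = 0.00761 in edgeR). The adjusted p in edgeR was 0.0683 without corticosterone replicate 1 and 0.0820 without control replicate 2, and below 0.05 without any one of the other 4. It overlaps the opposite-strand rows Gm28030 and Gm27286, which had at most 1 count in any library.

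Fendrr fell. It is transcribed from the side of the transcription factor gene Foxf1, on the opposite strand, and is required for heart and body wall development in the mouse embryo. Fendrr (chromosome 8, 121054882 to 121083032, minus strand) had 12.9, 15.9 and 13.3 CPM in corticosterone libraries, against 20.5, 23.9 and 21.97 CPM in control libraries. The groups did not overlap, and corticosterone replicate 2 was the highest of its group. With means of 14.04 ± 1.62 and 22.1 ± 1.70 CPM (SD, n = 3 each), the log2 fold change was -0.65 (SE 0.106, adjusted p = 0.0175 in edgeR). Foxf1, whose start lies 1354 bp from Fendrr as deposited, had 7.14, 6.27 and 5.64 CPM with corticosterone and 8.95, 8.07 and 9.49 CPM in controls, a log2 fold change of -0.48 (SE 0.125) that did not pass (adjusted p = 0.0942 in edgeR). For Fendrr the adjusted p in edgeR was 0.00119 without corticosterone replicate 2 and between 0.0537 and 0.115 without any one of the other libraries.

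Gm19589, for which no role is given here, showed the largest change of the 4. It (chromosome 1, 88551517 to 88562167, plus strand) had 5.41, 5.39 and 3.90 CPM with corticosterone, against 9.55, 8.74 and 9.23 CPM in controls. The highest corticosterone library lay well below the lowest control library. The means were 4.90 ± 0.866 and 9.18 ± 0.407 CPM (SD, n = 3 each), 1.87-fold lower with corticosterone, with a log2 fold change of -0.91 (SE 0.145, adjusted p = 0.0171 in edgeR). The call held without corticosterone replicate 2 or replicate 3 and was lost without any one of the other 4 libraries, with an adjusted p of up to 0.0878 in edgeR.

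**Figure D3:**
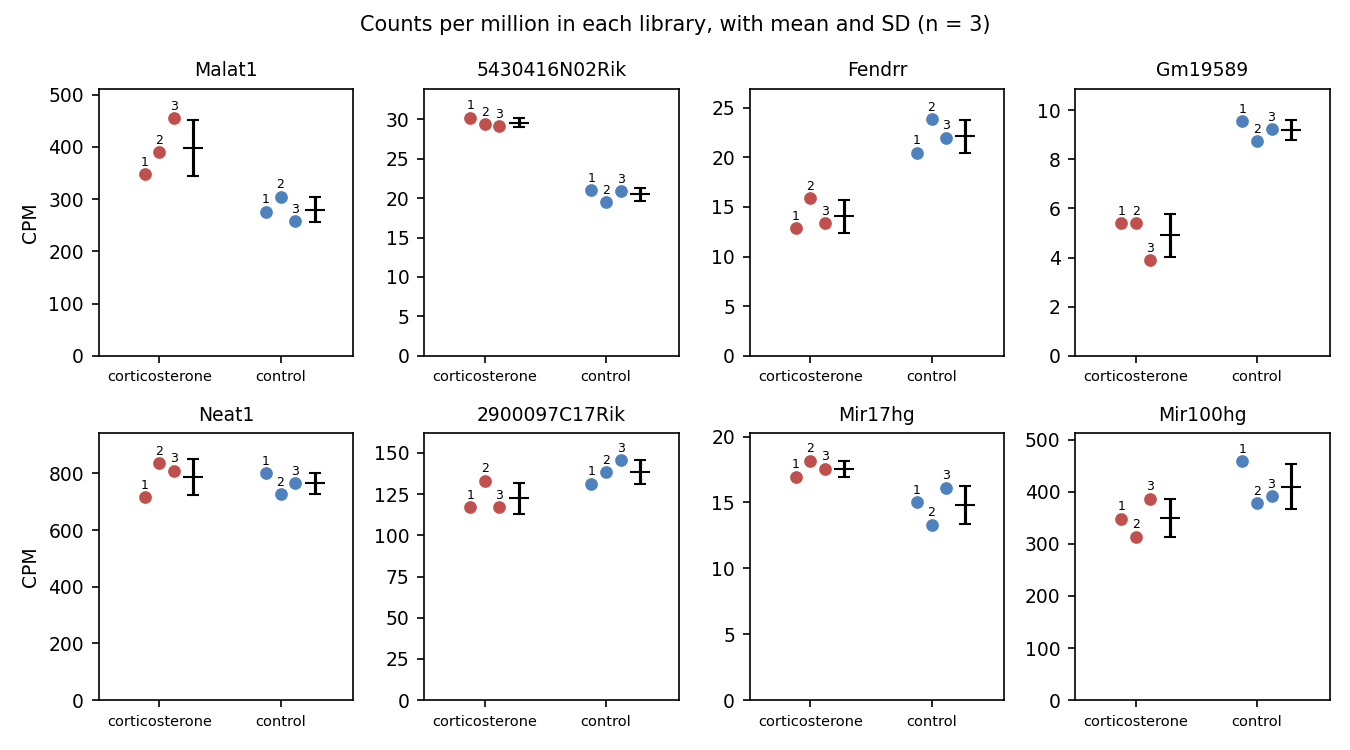
CPM of 8 lincRNAs in each library (points, numbered by replicate; corticosterone left, control right), with mean and SD (n = 3) beside them. Malat1 and 5430416N02Rik lie higher and Fendrr and Gm19589 lower in every corticosterone library than in any control library, and Neat1, 2900097C17Rik and Mir100hg overlap between the groups.

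The promoters of these 4 genes are shown because they differ in composition. Each runs from 250 bases before to 50 bases after the start annotated by RefSeq on GRCm38.p6, on the strand of the gene, with every CG pair in capitals. They lie at chr19:5802623-5802922 (Malat1), chr5:100429486-100429785 (5430416N02Rik), chr8:121083061-121083360 (Fendrr) and chr1:88551267-88551566 (Gm19589), and the RefSeq start of Fendrr differs by 78 bp from the deposited one.
Malat1: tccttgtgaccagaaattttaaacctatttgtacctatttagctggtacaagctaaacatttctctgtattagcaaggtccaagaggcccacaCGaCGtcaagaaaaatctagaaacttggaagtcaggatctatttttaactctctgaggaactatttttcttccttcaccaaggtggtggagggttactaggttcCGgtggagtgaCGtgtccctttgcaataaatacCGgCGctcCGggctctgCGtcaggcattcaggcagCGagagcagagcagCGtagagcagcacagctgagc
5430416N02Rik: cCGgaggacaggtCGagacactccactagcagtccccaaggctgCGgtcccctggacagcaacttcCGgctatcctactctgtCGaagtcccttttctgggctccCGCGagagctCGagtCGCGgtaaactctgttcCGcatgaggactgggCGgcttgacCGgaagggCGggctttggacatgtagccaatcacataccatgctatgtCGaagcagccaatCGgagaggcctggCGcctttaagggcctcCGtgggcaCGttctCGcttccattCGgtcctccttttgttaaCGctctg
Fendrr: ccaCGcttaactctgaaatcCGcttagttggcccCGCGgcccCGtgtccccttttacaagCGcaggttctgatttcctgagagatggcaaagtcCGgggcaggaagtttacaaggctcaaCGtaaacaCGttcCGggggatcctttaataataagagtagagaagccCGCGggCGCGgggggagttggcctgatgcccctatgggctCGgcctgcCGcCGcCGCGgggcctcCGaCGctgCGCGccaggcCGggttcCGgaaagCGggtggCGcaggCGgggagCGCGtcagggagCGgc
Gm19589: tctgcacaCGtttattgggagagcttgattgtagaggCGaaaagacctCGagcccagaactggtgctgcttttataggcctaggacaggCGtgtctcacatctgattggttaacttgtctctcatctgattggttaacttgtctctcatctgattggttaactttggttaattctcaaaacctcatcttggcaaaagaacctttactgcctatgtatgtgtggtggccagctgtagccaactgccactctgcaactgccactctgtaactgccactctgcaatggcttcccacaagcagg

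Fendrr has 31 CG pairs in this window and 5430416N02Rik has 22, both above the upper quartile of 20 over all 32851 promoters of the RefSeq table. Malat1 has 10 and Gm19589 has 4, against a median of 7 and a lower quartile of 3. The hexamer AGAACA, one arm of the binding site of the glucocorticoid receptor, searched on both strands, is in none of the 4 windows. It occurs in 18.97% of all promoters of the table. For the whole set, 61 of the 118 lincRNAs matched the table with 77 promoters, of which 7 (9.09%) hold the hexamer. The full palindrome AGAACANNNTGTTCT, which contains the hexamer, occurs in 3 of all promoters and in 0 of those of the lincRNAs. These matches describe the letters in short windows, and binding of the receptor was not measured. Sites outside the windows were not searched, so a missing hexamer does not show that a gene lacks a site.

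The other well-studied nuclear and cytoplasmic lincRNAs did not pass. Neat1, which builds the paraspeckle and lies beside Malat1 on chromosome 19, had 718, 836 and 809 CPM with corticosterone and 801, 727 and 766 CPM in controls. The groups overlapped, with a log2 fold change of 0.04 (SE 0.0691, adjusted p = 0.801 in edgeR). 2900097C17Rik is the mouse counterpart of human NORAD, a cytoplasmic RNA that binds Pumilio proteins and helps to keep chromosome number stable. It had 117, 133 and 117 CPM with corticosterone and 131, 138 and 146 CPM in controls, a log2 fold change of -0.18 (SE 0.0697, adjusted p = 0.250 in edgeR). Only corticosterone replicate 2 reached into the control range, and without that library the adjusted p in edgeR was 0.0111. Gm7292, which shares 86.6% of its 31-base words with other genes and nearly all of these with 2900097C17Rik, had a log2 fold change of 0.13 (SE 0.123, adjusted p = 0.643 in edgeR).

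Genes of proteins that work with such RNAs were counted from 3 lists, of which 0 changed with all 6 libraries, where 2.82% of all genes did. For lists of this size a count of 0 is near that share and says nothing particular to them. Among 20 paraspeckle proteins 0 passed in edgeR, with 1 at an unadjusted p under 0.05 and a median log2 fold change of -0.032. Among 18 nuclear speckle proteins 0 passed, with 1 at an unadjusted p under 0.05 and a median of 0.0027. Among 22 tested genes of lincRNA processing and decay 0 passed, with 2 at an unadjusted p under 0.05 and a median of 0.060. The pair of lowest p in that list were Smg1, a kinase of nonsense-mediated decay, at 147 ± 27.0 CPM with corticosterone and 113.9 ± 8.94 CPM in controls, and Xpo5, which exports microRNA precursors, at 150.5 ± 3.32 and 135 ± 6.24 CPM (SD, n = 3 each). DESeq2 called 1 gene over the 3 lists. With corticosterone replicate 2 left out, 1 paraspeckle protein rose and 2 fell, 4 speckle proteins rose and 2 fell, and 5 processing and decay genes rose and 0 fell in edgeR, where 20.5% of all genes passed, 10.5% higher and 10% lower.

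Apart from Gm26532, which overlaps Mir24-2 on its own strand without spanning it, 5 of the 118 lincRNAs span annotated microRNA genes. A single mature sequence is shown for each microRNA gene spanned by Mir17hg, Mir100hg, Gm49890, C130071C03Rik and 2900076A07Rik. Further mature sequences of these genes are not shown. The sequences run 5′ to 3′ from RefSeq on GRCm38.p6, with the seed (bases 2 to 8) in capitals. For let-7a-2 only let-7a-2-3p was found within Mir100hg, and the sequence of its other arm is not shown. The libraries measured the host transcripts, and mature microRNAs were not measured.
miR-17-5p: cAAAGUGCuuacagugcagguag
miR-20a-5p: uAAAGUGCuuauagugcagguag
miR-18a-5p: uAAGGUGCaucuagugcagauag
miR-19a-3p: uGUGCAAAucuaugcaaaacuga
miR-19b-3p: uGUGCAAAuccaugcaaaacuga
miR-92a-3p: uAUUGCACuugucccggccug
miR-100-5p: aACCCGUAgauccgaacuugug
miR-125b-5p: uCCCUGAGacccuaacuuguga
let-7a-2-3p: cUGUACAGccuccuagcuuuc
miR-31-5p: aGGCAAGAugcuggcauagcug
miR-9-5p: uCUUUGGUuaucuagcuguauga
miR-1839-5p: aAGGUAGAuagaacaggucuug

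The first 6 of these come from Mir17hg, the host of the miR-17-92 cluster, a known target of Myc that promotes proliferation. In it miR-17-5p and miR-20a-5p share the seed AAAGUGC, and miR-19a-3p and miR-19b-3p share GUGCAAA. Mir17hg had 16.9, 18.2 and 17.6 CPM with corticosterone and 15.01, 13.3 and 16.1 CPM in controls. The groups did not overlap, but the log2 fold change of 0.25 (SE 0.0929) did not pass (adjusted p = 0.236 in edgeR).

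Mir100hg spans 389.9 kb and hosts miR-100, let-7a-2 and miR-125b-1. It had 348, 314 and 387 CPM with corticosterone and 458, 379 and 392 CPM in controls, and corticosterone replicate 3 lay above control replicate 2. The log2 fold change was -0.23 (SE 0.0961, adjusted p = 0.279 in edgeR), and 4 rows overlap it on the opposite strand. Gm49890 hosts miR-31, a microRNA studied in breast cancer metastasis. It had 36.9, 48.3 and 34.5 CPM with corticosterone and 45.2, 44.9 and 51.7 CPM in controls, a log2 fold change of -0.24 (SE 0.127, adjusted p = 0.379 in edgeR). The overlap came from corticosterone replicate 2 alone, and without it the log2 fold change was -0.41 with an adjusted p of 0.00785 in edgeR. C130071C03Rik, which hosts miR-9-2, and 2900076A07Rik, which hosts miR-1839, had log2 fold changes of -0.20 and -0.10 and did not pass (adjusted p = 0.400 and 0.731 in edgeR).

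The 6 lincRNAs that span annotated snoRNA genes, which guide modification of ribosomal and other RNAs, did not pass either. 1110038B12Rik spans 2 snoRNA genes and was by level the first of the 6. It had 140.0, 151 and 137 CPM with corticosterone and 132, 135 and 144 CPM in controls, and the ranges overlapped (log2 fold change 0.06, SE 0.0613, adjusted p = 0.662 in edgeR). Dancr, known in human skin for holding back differentiation of epidermal progenitors, had 7.52, 11.0 and 9.80 CPM with corticosterone and 9.96, 9.29 and 10.8 CPM in controls (log2 fold change -0.08, SE 0.146). Epb41l4aos, 2700038G22Rik and 2900076A07Rik had log2 fold changes of 0.08, -0.15 and -0.10. Of these, 2900076A07Rik is also among the microRNA hosts above, and the only same-strand rows that overlap it are named Mir1839. AI506816 moved more, with 6.07, 6.33 and 7.57 CPM with corticosterone and 5.98, 2.83 and 3.66 CPM in controls. Its groups were separated only narrowly, by control replicate 1, and the log2 fold change of 0.68 (SE 0.254) did not pass (adjusted p = 0.228 in edgeR).

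Further lincRNAs with low p did not pass in edgeR with all 6 libraries. D5Ertd605e had 5.55, 6.68 and 5.86 CPM with corticosterone, against 7.54, 8.45 and 9.85 CPM in controls, a log2 fold change of -0.51 (SE 0.134, adjusted p = 0.0942 in edgeR). Without corticosterone replicate 2 D5Ertd605e passed, with a log2 fold change of -0.60 and an adjusted p of 0.0183 in edgeR, and it also passed in DESeq2 with all libraries (adjusted p = 0.0270). Gm20559 had 15.8, 16.1 and 16.6 CPM with corticosterone, against 18.3, 19.9 and 20.3 CPM in controls, a log2 fold change of -0.27 (SE 0.0783, adjusted p = 0.126 in edgeR). Both lay lower in every corticosterone library than in any control library. AU020206 lay higher, with 88.1, 88.2 and 83.0 CPM with corticosterone and 73.5, 79.9 and 75.7 CPM in controls (log2 fold change 0.18, SE 0.0580, adjusted p = 0.168 in edgeR).

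Of the further ones that lay lower, Gm44507, 1810044D09Rik, 5033430I15Rik, 5033406O09Rik and Gm46620 had log2 fold changes of -0.90, -1.07, -0.69, -0.52 and -0.55, with no overlap between the groups. Their adjusted p in edgeR lay between 0.132 and 0.255, and Gm46620 shares 90.2% of its 31-base words with other genes. Except for Gm44507, these passed without corticosterone replicate 2 (adjusted p between 0.0114 and 0.0466 in edgeR). With all libraries Gm46620 passed in DESeq2 (adjusted p = 0.0326), and Gm44507 and 1810044D09Rik passed in limma on log2(FPKM + 1) (adjusted p = 0.00837 and 0.0389). Gm50397, which 1 row overlaps on the opposite strand, had the largest positive log2 fold change of the lincRNAs tested. It had 1.81, 1.81 and 1.93 CPM with corticosterone against 1.12, 1.36 and 0.842 CPM in controls (log2 fold change 0.74, SE 0.221, adjusted p = 0.140 in edgeR). The coding gene nearest to it is Nr3c1, the glucocorticoid receptor itself, at 113682 bp on the same strand.

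Rps18-ps4 could not be tested, since its counts came from 1 library. It had 0, 52991 and 0 counts in corticosterone replicates 1, 2 and 3, against 0, 0 and 0 counts in control replicates 1, 2 and 3. Rps18-ps6, a coding row that overlaps it on the opposite strand of chromosome 13 (97760072 to 97760632 within 97751112 to 97760965), had 38549, 0 and 38307 counts in the corticosterone libraries, against 43367, 46821 and 49059 counts in the control libraries. Each library thus gave its counts to a single row of the pair. Rps18-ps6 is by name a copy of the ribosomal protein gene Rps18, and the Rps18-ps4 row crosses the same place on the opposite strand. The Rps18-ps4 transcript therefore holds 543 bases of the 561-base Rps18-ps6 transcript as the reverse complement. A stretch of 60 bases of each transcript (GRCm38) shows this: read backwards and complemented, each gives the other.
Rps18-ps4: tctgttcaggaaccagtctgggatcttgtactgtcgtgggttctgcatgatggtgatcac
Rps18-ps6: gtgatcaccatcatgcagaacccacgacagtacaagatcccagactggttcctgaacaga

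Added together, the rows took 0.0620, 0.0800 and 0.0593% of the counts in corticosterone libraries and 0.0684, 0.0716 and 0.0744% in control libraries. The mean of 110 FPKM that places Rps18-ps4 first among the lincRNAs is thus the level of corticosterone replicate 2 spread over 6 libraries. The labels do not state how reads shared between rows were counted.

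**Figure D4:**
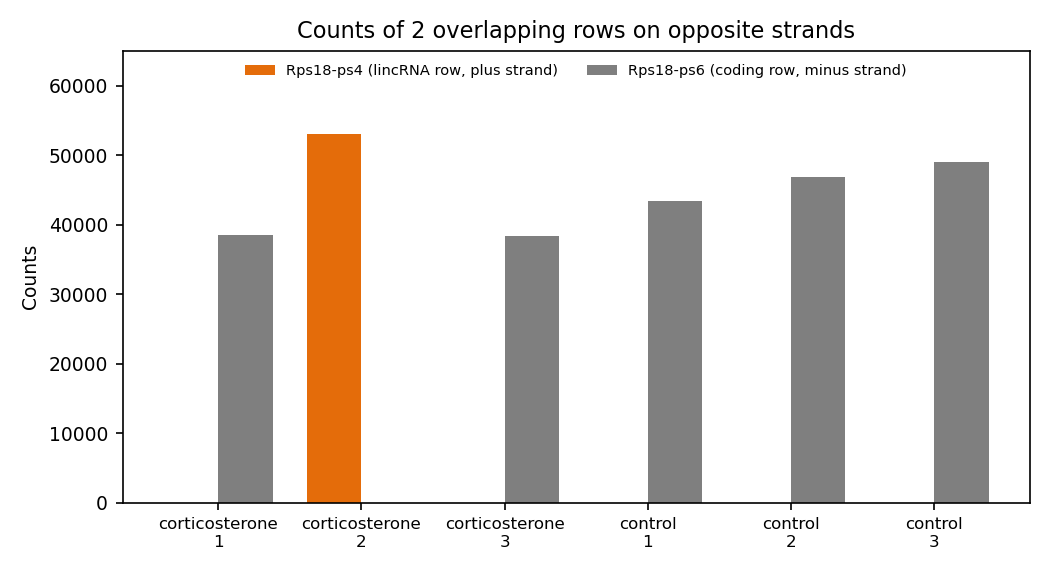
Counts of Rps18-ps4 (plus strand) and of the opposite-strand row Rps18-ps6 in each library, corticosterone libraries left. Rps18-ps4 has counts only in corticosterone replicate 2, the one library in which Rps18-ps6 has 0.

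Erdr1 and Gm47283, which share sequence with each other, also had their highest values in corticosterone replicate 2. Both are typed lincRNA in the deposited table but protein coding in GENCODE M21, and they lie on chromosomes X and Y. Erdr1 had 112, 167 and 98.5 CPM with corticosterone and 140.5, 148 and 142 CPM in controls, and Gm47283, with which it shares 62.0% of its 31-base words, had 199, 269.9 and 169 CPM with corticosterone and 213, 258 and 268 CPM in controls. In both, corticosterone replicates 1 and 3 lay below all controls. The log2 fold changes were -0.19 (SE 0.168) and -0.21 (SE 0.162), and neither passed (adjusted p = 0.618 and 0.558 in edgeR). Without corticosterone replicate 2 they were -0.45 and -0.42, with adjusted p of 0.00187 and 0.0188 in edgeR. Gm10076 and Gm42047, which share 84.2% and 72.3% of their words with other genes, had log2 fold changes of -0.03 and 0.01 (adjusted p = 0.937 and 0.938 in edgeR).

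Because some lincRNAs are known for acting on the gene beside them, the nearest coding genes were examined. A coding gene lay within 50 kb of 93 of the 118 lincRNAs, at a median distance of 10702 bp for the whole set, and 14 overlapped one. These were 92 different genes, of which 84 could be tested. Of the 84, 2 rose and 4 fell (7.14%, against 2.82% of all genes), and 0 of these 6 lay beside a lincRNA that itself changed. Sec31a beside 5430416N02Rik and Glrp1 beside Gm19589 had log2 fold changes of 0.16 and 0.04, and Foxf1 beside Fendrr is given above.

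Myc and Ifrd2 rose. Myc, a driver of growth and proliferation, had 408 ± 11.8 CPM with corticosterone and 320.3 ± 6.67 CPM in controls (SD, n = 3 each; log2 fold change 0.35, SE 0.0494, adjusted p = 0.0101 in edgeR). Pvt1, the lincRNA 47636 bp from it on the same strand and often amplified with it in tumours, had 30.6, 28.1 and 26.9 CPM with corticosterone and 21.6, 26.7 and 23.7 CPM in controls. Its groups did not overlap, with 26.9 CPM in the lowest corticosterone library and 26.7 in the highest control, and its log2 fold change of 0.25 (SE 0.0972) did not pass (adjusted p = 0.247 in edgeR). Ifrd2 lies 1402 bp from Gm38150 and had a log2 fold change of 0.31 (adjusted p = 0.0193 in edgeR). Gm38150, at about 1 CPM, had a log2 fold change of 0.24 (SE 0.338).

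Ccn1, Ltbp2, Nt5c2 and Arhgef19 fell. Ccn1, a secreted matrix protein and target of YAP, had 186.7 ± 5.003 CPM with corticosterone and 263 ± 13.98 CPM in controls (SD, n = 3 each; log2 fold change -0.49, SE 0.0563, adjusted p = 0.00448 in edgeR). Gm17501 starts 331 bp away on the opposite strand and had 1.75, 2.44 and 1.83 CPM with corticosterone, against 2.88, 2.94 and 3.48 CPM in controls. The 2 thus lay lower together, Gm17501 with a log2 fold change of -0.63 (SE 0.183) that did not pass with all libraries (adjusted p = 0.131 in edgeR) and passed without corticosterone replicate 2 (adjusted p = 0.0159 in edgeR). Ltbp2, which binds matrix microfibrils, Nt5c2, a nucleotidase, and Arhgef19, a guanine nucleotide exchange factor, had log2 fold changes of -0.56, -0.33 and -0.47, and the lincRNAs beside them, Gm48709, Gm50431 and Gm13056, had 0.15, -0.05 and -0.14. Gm50431 overlaps Nt5c2 on the opposite strand, and Pvt1 and Lockd each overlap 1 opposite-strand row. Lockd, which lies 3579 bp from the cell cycle inhibitor gene Cdkn1b, had 14.01, 13.9 and 14.1 CPM with corticosterone and 14.9, 14.8 and 13.4 CPM in controls (log2 fold change -0.04, SE 0.0817).

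Over the 84 pairs in which both genes were tested, fold changes of lincRNA and neighbour had a Pearson correlation of 0.191 and a Spearman rank correlation of 0.288, and the signs were the same in 55. In the 73 pairs that do not overlap, these were 0.190 and 0.292. Among the 14 pairs that start within 1 kb of each other on opposite strands, the signs were the same in 10. These values are across pairs within the same 6 libraries, which all pairs share, and are given as a description.

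**Figure D5:**
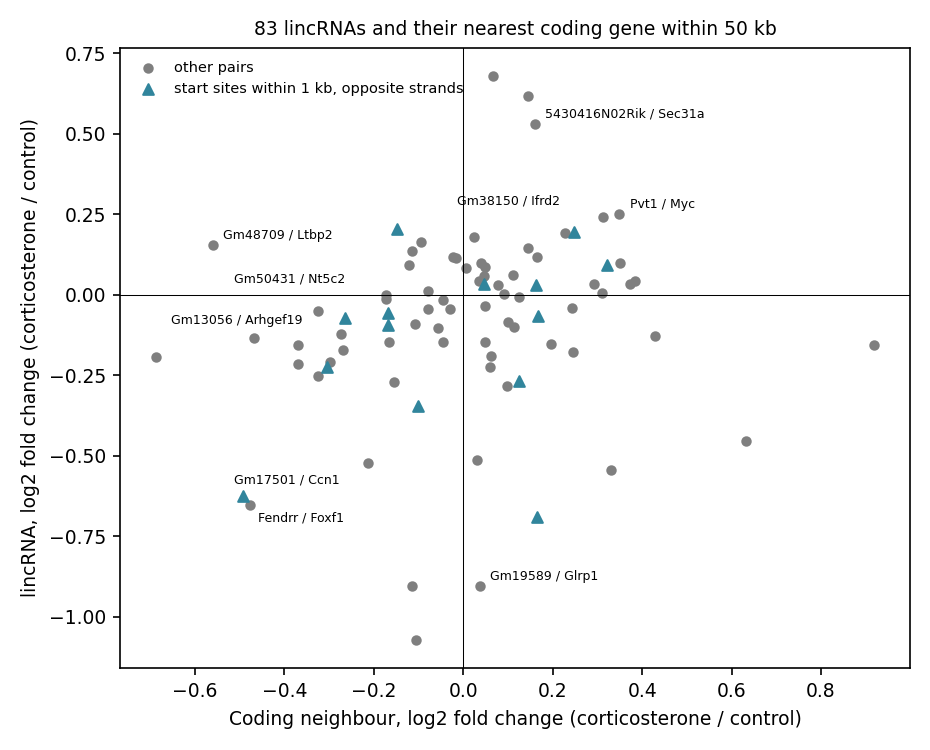
Log2 fold change of each lincRNA against that of its nearest coding gene within 50 kb, corticosterone over control, for 83 of the 84 pairs (1 is not drawn); triangles start within 1 kb of each other on opposite strands. Drawn pairs in which the lincRNA or its neighbour passed are named, and in no pair did both pass.

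Taken as a sum, the 118 lincRNAs held 0.325, 0.427 and 0.345% of the counts in corticosterone libraries and 0.345, 0.335 and 0.335% in control libraries. The means of 0.366 ± 0.0542% and 0.338 ± 0.00562% (SD, n = 3 each) differed by 0.0277 percentage points, which an exact two-sided permutation test did not separate (p = 0.6, with 0.1 the smallest p that 3 against 3 allows). Without Rps18-ps4 the means were 0.339 ± 0.0120% and 0.338 ± 0.00562%, with an exact p of 0.8. Neat1 took 0.0790 ± 0.00552% with corticosterone and 0.0762 ± 0.00384% in controls, and Malat1 0.0399 ± 0.00556% and 0.0279 ± 0.00244% (exact permutation p = 0.6 and 0.1).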

How the data were processed

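RNA sequencing libraries of 4T1 cells, 3 treated with corticosterone and 3 controls, were grouped by the treatment label and numbered by their titles. The deposited table gives a count per gene and library (whole numbers, named counts by the column headers). An FPKM value per gene and library was deposited by the authors beside them. The submitters' processing notes name the human build GRCh38, but the gene identifiers are from mouse and 109 of the 118 lincRNAs have the coordinates of GENCODE M21 (GRCm38). No aligner or counter is named in the sources used here. Counts were scaled by TMM, filtered with filterByExpr (minimum count 10, minimum total 15; 17283 genes kept) and tested in edgeR 4.0.16 (R 4.3.3) by the quasi-likelihood test with group as the only factor, with Benjamini-Hochberg adjustment over all tested genes; "rose", "fell" and "passed" mean an adjusted p under 0.05. The standard error is the log2 fold change divided by the square root of F. CPM uses TMM-scaled library sizes, and the biological coefficient of variation was 0.135. The scripts were tested on simulated counts, on which DESeq2 made more false calls than edgeR. Alternatives were DESeq2 1.42.0, limma 3.58.1 on log2(FPKM + 1) and log2(FPKM + 0.1), limma-voom, no low count filter, other floors, a replicate block and leaving out each library. Sequence shared with other genes was counted as 31-base words of GENCODE M21 transcripts on either strand. Single values were compared by exact permutation over libraries (SciPy 1.17.1). Named are the lincRNAs that changed, the 12 most abundant, up to 12 further ones of lowest p, microRNA hosts and well-studied lincRNAs, and neighbours of those that changed (1 neighbour and 1 cell type marker are not reported here); others named beside a count were chosen after their values were seen. The members and the lists were chosen with earlier results of these data known. Same-numbered libraries did not deviate together (r of 0.011, 0.038 and -0.088), so they were not paired.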

Additional observations from a re-analysis of the deposited data

How the results depend on the processing

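With all 6 libraries edgeR called 487 genes, 2 lincRNAs that rose, 2 that fell, 6 neighbouring genes and 0 of the listed proteins, and the median log2 fold change of the lincRNAs was -0.044. Leaving out 1 library gave 88 to 3670 genes, 0 to 4 lincRNAs that rose, 0 to 12 that fell, 2 to 27 neighbours, up to 14 listed proteins and a median between -0.097 and -0.038; the upper ends came without corticosterone replicate 2, the lowest gene count without control replicate 2. DESeq2 called 1113 genes, 4 lincRNAs that fell, 12 neighbours and 1 listed protein. Limma on FPKM called 4 lincRNAs that fell, with a median of -0.028 (pseudocount 1) or -0.035 (0.1). Without a low count filter there were 211 genes, 1 lincRNA that rose and 0 that fell (adjusted p in edgeR 0.128 for Malat1, 0.0613 for Fendrr and 0.0593 for Gm19589). With the replicate number as a block there were 237 genes, 1 lincRNA that rose and 2 neighbours; Malat1 was lost (adjusted p = 0.0879 in edgeR). Limma-voom with library weights called 4724 genes, 7 lincRNAs that rose, 17 that fell, 31 neighbours and 17 listed proteins, with a median of -0.062. A floor of 0.5 FPKM gave a median of -0.019 over 202 tested lincRNAs, and a floor of 2 gave -0.059 over 62. Without those that overlap a gene on the opposite strand, 1 of 82 rose and the median was -0.070. The cause of these shifts was not tested. Of the values of single named lincRNAs under the alternatives, 394 kept their side of the threshold, 34 newly passed it, 20 no longer passed it and 0 reversed. The median standard error was 0.161 for the lincRNAs, against 0.117 for all genes, and the part of depth in this was not tested. Leaving out shared-sequence lincRNAs, and Rps18-ps4 from the sum, were chosen after seeing the data.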

Other observations

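Of 46 listed names of well-studied long noncoding RNAs, 9 belong to the set described above and 14 are lincRNA rows below the floor of 1 FPKM. Another 11 are rows of another type, and 12 match no row under the listed name. Norad is among these 12 but is described above as 2900097C17Rik, so the names outnumber the RNAs. Peg13, an imprinted RNA typed sense intronic, fell, with 13.9, 15.7 and 15.96 CPM in corticosterone libraries and 20.3, 22.7 and 22.1 CPM in control libraries (log2 fold change -0.51, SE 0.0889, Benjamini-Hochberg adjusted p = 0.0229 in edgeR). Mir22hg, the host of miR-22, had 9.19, 9.99 and 9.54 CPM with corticosterone and 7.29, 7.04 and 7.89 CPM in controls, with no overlap and no call (log2 fold change 0.37, SE 0.0986, adjusted p = 0.101 in edgeR). Tug1, Firre and Zfas1 had log2 fold changes of -0.08, 0.10 and 0.15 and did not pass.

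Below the floor, Xist, which coats the inactive X chromosome, stood at 0.311 FPKM and H19, an imprinted RNA of fetal growth, at 0.308 FPKM. H19 had 0.715, 0.567 and 0.474 CPM with corticosterone and 0.724, 1.58 and 1.15 CPM in controls, a log2 fold change of -0.97 (SE 0.339) that did not pass (adjusted p = 0.197 in edgeR). Among the set itself, AW112010, outside the naming rule and chosen after its value was seen, had a log2 fold change of -0.82 (SE 0.365, adjusted p = 0.301 in edgeR); it is known in mouse immune cells as an RNA from which a short protein is translated.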
